A study of Arabidopsis thaliana with 2 samples.

Results

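In all, 10 regulators of the nitrate response of Arabidopsis thaliana were followed in roots exposed to aluminium: HRS1, HHO1, HHO2 and HHO3 of the HRS1/HHO family, LBD37, LBD38 and LBD39 of the LOB-domain family, the BTB and TAZ domain genes BT1 and BT2, and the bZIP gene TGA4. They were taken by locus from the gene names of the array, where each of the 10 had 1 non-control probe. Of these, 9 were among the 19194 genes tested, and TGA4 was left out because its spot on replicate 2 was marked as non-uniform. Both groups were roots of 10-day-old Col-0 seedlings kept for 6 h at pH 5.0, one with 10 µM AlCl3 and the control without it. RNA of both groups was hybridised together on a 2-colour Agilent array in 2 biological replicates, with the dyes exchanged between them (aluminium RNA in Cy3 on the first array, in Cy5 on the other). The seedlings of both groups had grown at pH 5.5 in MGRL nutrient solution diluted to 2% with 200 µM CaCl2. Ratios below are log2 of the aluminium signal over the control signal on one array, and means carry the SD over the 2 arrays (n = 2).

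Nitrate acts on plant cells as a signal as well as a nutrient. It is sensed by the transporter NRT1.1, and transcription factors of the NLP family, NLP7 foremost, then switch on genes of nitrate uptake and reduction together with a set of transcriptional regulators. HRS1 and the HHO proteins are repressors that hold back high-affinity nitrate uptake genes and act on phosphate starvation genes. LBD37, LBD38 and LBD39 repress anthocyanin and nitrogen-responsive genes, BT1 and BT2 lower the expression of high-affinity nitrate transporter genes, and TGA4 with its close relative TGA1 acts on NRT2.1 and NRT2.2.

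The samples were whole roots. Of the listed markers on the arrays, all 8 of the endodermis, all 8 of root hairs and all 7 of the stele were well above background in the control channel of both arrays, and so were 9 of 10 green shoot markers. In whole roots, fewer cells of a type and less RNA per cell cannot be told apart. Every regulator was well above background in all 4 channels, with a signal between 3.90 and 126.5 times the local background, and none was saturated. Dye orientation, array layout and software version changed together with the replicate.

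Transcripts of the nitrate response regulators were lower in aluminium-treated roots. Of the 9 tested, 7 fell (limma, Benjamini-Hochberg adjusted p under 0.05), 0 rose and 2 did not pass, against 6.48% of all genes tested called lower and 8.25% called higher. The ratios of the scanner software left 3 calls (HRS1, HHO1 and BT1), where 118 of all 19194 genes were called lower. LBD37, LBD38, LBD39 and BT2 thus lost theirs. The series matrix values left 0 in limma, with 5073 genes of the whole table at an unadjusted p under 0.05. The calls given below for relatives of the regulators and for genes of nitrate signalling, uptake and reduction ended with both of these sources too. All 10 had a negative ratio on both arrays, as did 35.3% of genes tested. The ratio was at least 2-fold lower on both arrays for 6 of the 10 (BT1, HRS1, BT2, HHO1, LBD37 and LBD39), against 0.891% of genes tested, and at least 2-fold higher for 0 of the 10, against 1.64%. The median ratio of the 9 was -1.21 on replicate 1 and -1.50 on replicate 2, while all genes tested had medians of -0.0019 and 0.0065. The regulators had been chosen with earlier results of these data known, so these shares are a description.

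**Figure D1:**
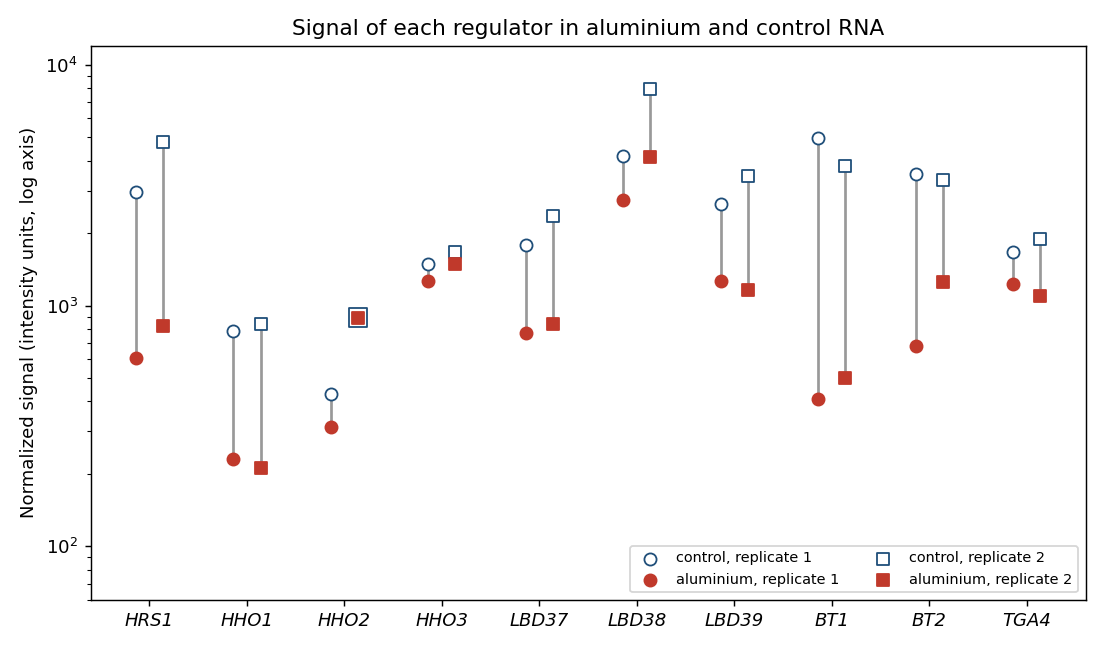
Normalized signal of the 10 regulators (intensity units, log axis) in control (open) and aluminium (filled) RNA on replicate 1 (circles) and replicate 2 (squares), with a line joining the RNAs of 1 array; the larger open square of HHO2 lies around its filled one. In 9 of the 10, all but HHO2, both aluminium signals lie below both control signals, as they do in 16.9% of genes tested.

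Within the HRS1/HHO family, HRS1 and HHO1 fell and the others did not pass. HRS1 (AT1G13300), a repressor that links the nitrate and phosphate responses of the primary root, had normalized signals of 2966 and 4771 in control RNA and 607 and 819 in aluminium RNA on replicates 1 and 2. The aluminium values were thus 20.5% and 17.2% of the control on the same array, and the groups did not overlap. Its log2 ratios were -2.29 and -2.54, a mean of -2.42 ± 0.18 (95% confidence interval -2.69 to -2.14, adjusted p = 0.00152), or 5.34-fold lower. It was the gene with rank 12 from the lowest of the 19194.

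HHO1 (AT3G25790), the repressor that acts with HRS1 in the primary root, had control signals of 781 and 841 and aluminium signals of 230 and 211. Again the groups did not overlap. The ratios of -1.76 and -1.995 gave a mean of -1.88 ± 0.16 (adjusted p = 0.00265), which is 3.68-fold lower. HRS1 was lower than HHO1 on each array, the difference HRS1 minus HHO1 being -0.53 and -0.55 on the log2 scale.

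HHO2 (AT1G68670) and HHO3 (AT1G25550), which belong to the same group of repressors, did not pass. For HHO2 the control signals were 431 and 892 and the aluminium signals 313 and 889, so that the groups overlapped and a difference was seen on replicate 1 alone. Its ratios were -0.46 and -0.0043 (95% confidence interval of the mean -0.59 to 0.12, adjusted p = 0.326). For HHO3 the control signals of 1492 and 1669 stood against 1266 and 1483, with ratios of -0.24 and -0.17 (interval -0.44 to 0.035, adjusted p = 0.219). With each array centred on its median in place of loess, HHO2 and HHO3 had positive ratios of 0.22 and 0.11 on replicate 2. Both intervals lie above that of HHO1, which ran from -2.15 to -1.61. The remaining family members HHO4 (-0.079 ± 0.0061), HHO5 (0.21 ± 0.16) and HHO6 (0.30 ± 0.049) did not pass either.

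All 3 class II LOB-domain regulators of nitrogen-responsive genes fell. LBD37 (AT5G67420) had control signals of 1782 and 2365 and aluminium signals of 769 and 838. LBD39 (AT4G37540) had 2644 and 3471 in the control and 1264 and 1162 with aluminium. In both genes the aluminium values lay well below the control values. The mean ratios were -1.35 ± 0.20 for LBD37 (adjusted p = 0.00497) and -1.32 ± 0.36 for LBD39 (adjusted p = 0.00898), 2.56-fold and 2.5002-fold lower. Their order was not the same on both arrays, the difference LBD37 minus LBD39 being -0.15 on replicate 1 and 0.082 on replicate 2.

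LBD38 (AT3G49940) fell less in ratio. Its control signals were 4203 and 7939, and its aluminium signals 2754 and 4134, the highest aluminium value being just under the lowest control value. The mean was -0.78 ± 0.23 (adjusted p = 0.0179), or 1.71-fold lower. Its ratio was closer to 0 than that of LBD39 by 0.45 and 0.64 on replicates 1 and 2. Differences between regulators were not tested. Of the other class II genes measured, LBD41, known as a hypoxia-induced gene, rose by 0.83 ± 0.070 (adjusted p = 0.00934), and LBD40 had -0.045 ± 0.094.

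**Figure D2:**
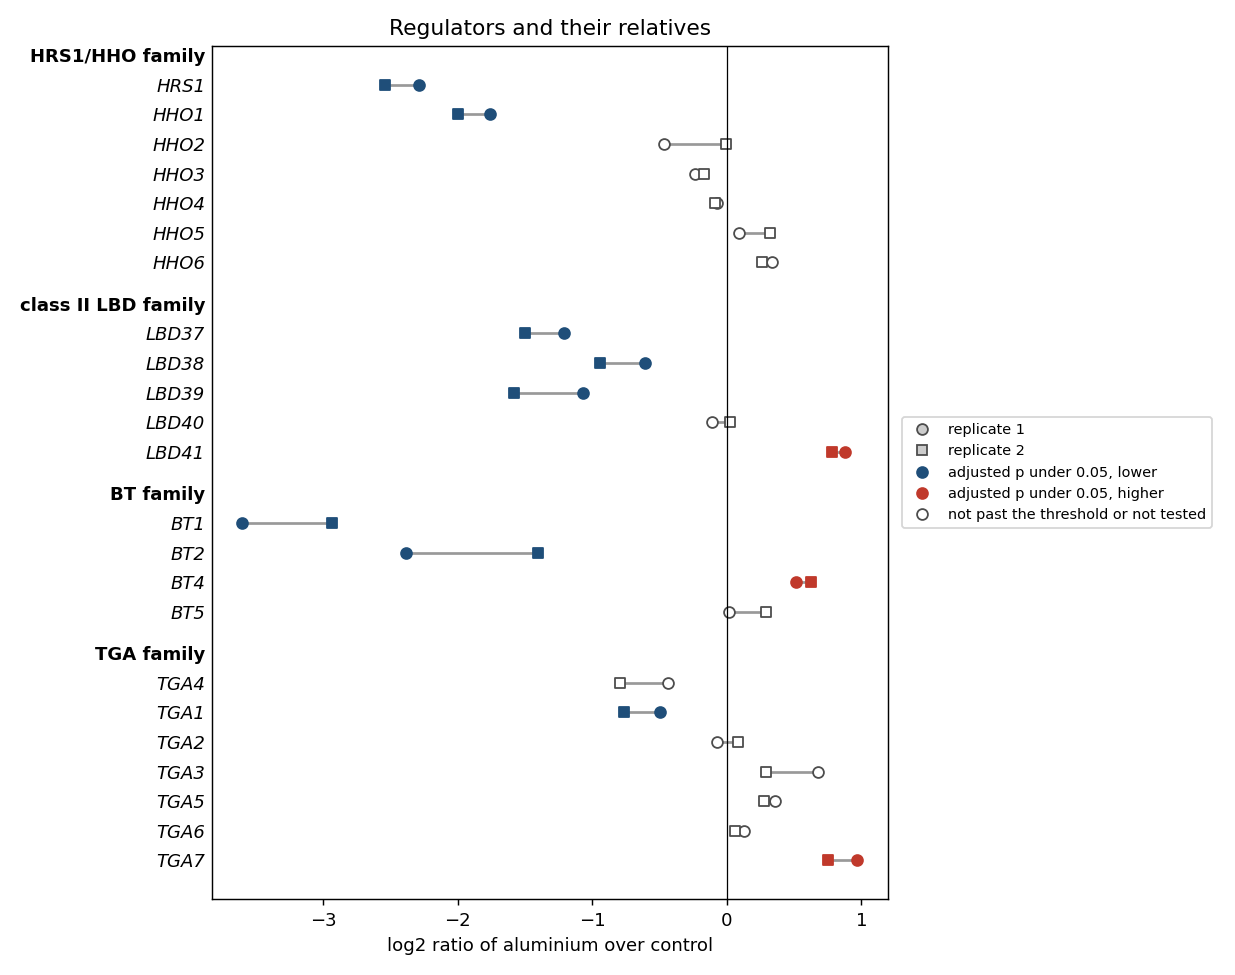
Log2 ratio of aluminium over control on replicate 1 (circles) and replicate 2 (squares) for the 10 regulators and their measured relatives, by family, filled blue or red where the gene was lower or higher at an adjusted p under 0.05. Blue points in the first 3 families are regulators of the nitrate response only, with LBD41, BT4 and TGA7 on the higher side.

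Of all 10 regulators, BT1 was the one with the lowest mean ratio. BT1 (AT5G63160), whose product carries a BTB and a TAZ domain and lowers nitrate uptake gene expression together with BT2, had control signals of 4958 and 3820 and aluminium signals of 409 and 501. Aluminium RNA thus held 8.25% and 13.1% of the control signal. The ratios of -3.60 and -2.93 gave a mean of -3.26 ± 0.47 (95% confidence interval -3.71 to -2.82, adjusted p = 0.00238), or 9.61-fold lower, rank 5 from the lowest of all genes tested.

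BT2 (AT3G48360), the close homologue of BT1 that also responds to sugars and the time of day, had control signals of 3537 and 3325 and aluminium signals of 680 and 1256. The groups did not overlap, although the arrays differed in size of the change, with ratios of -2.38 and -1.41. The mean was -1.89 ± 0.69 (interval -2.496 to -1.29, adjusted p = 0.0113), and the difference BT1 minus BT2 was -1.22 and -1.52 on replicates 1 and 2. The relatives BT4 and BT5 did not follow: BT4 rose by 0.57 ± 0.078 (adjusted p = 0.0230), a call that ended with median centring (highest adjusted p over all alternatives 0.205), and BT5 had 0.15 ± 0.20.

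TGA4 (AT5G10030), a bZIP factor of the nitrate response of roots that also acts in defence, had control signals of 1666 and 1895 and aluminium signals of 1231 and 1092. The groups did not overlap, and the ratios were -0.44 and -0.80. The spot marked as non-uniform is the one on replicate 2, so the value of replicate 1 rests on an unmarked spot. When marked and dim probes were kept, the mean of -0.62 ± 0.25 passed (limma over 20279 genes, adjusted p = 0.0345). TGA1, its closest relative and partner in nitrate signalling, had -0.50 and -0.76 on the arrays and fell by 0.63 ± 0.19 (adjusted p = 0.0248), a call that also ended with median centring (highest adjusted p over all alternatives 0.106). TGA7 rose by 0.86 ± 0.16 (adjusted p = 0.0107), while TGA3 (0.48 ± 0.28) and TGA5 (0.32 ± 0.060) did not pass.

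**Figure D3:**
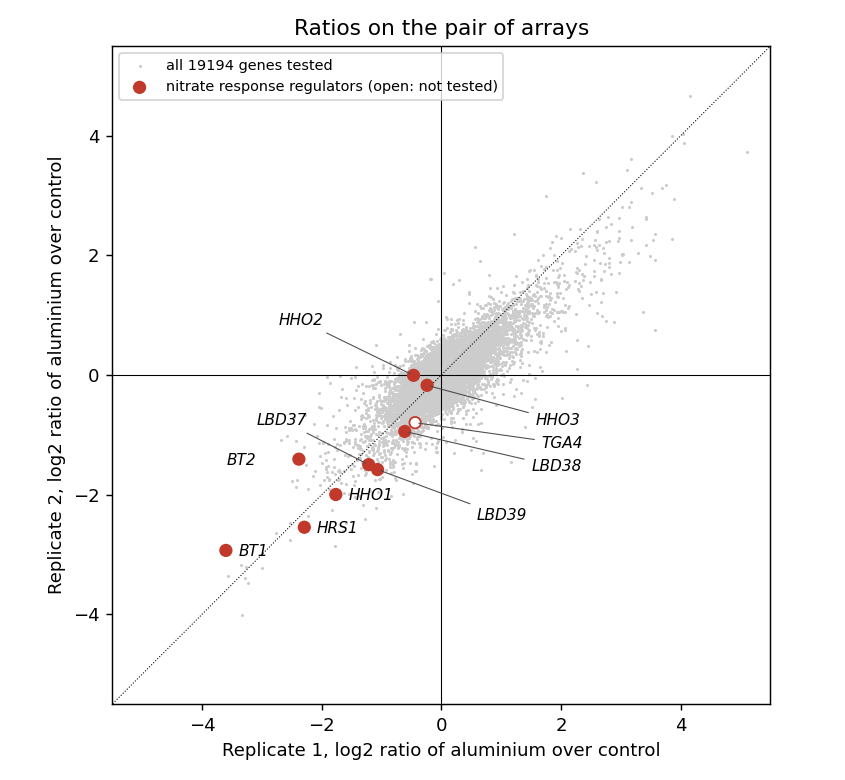
Log2 ratio of aluminium over control on replicate 1 (x axis) against replicate 2 (y axis) for the 19194 genes tested (grey) and the 10 regulators (red, open for TGA4, which was not tested), with equal values on the dotted line. BT1, HRS1 and HHO1 lie among the lowest genes on both arrays, while HHO2 and HHO3 lie within the cloud around 0. BT2 (-2.38 and -1.41) lies above LBD37 and LBD39 on replicate 2.

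Ordered by mean ratio, BT1 came first, followed by HRS1, BT2, HHO1, LBD37, LBD39, LBD38, TGA4, HHO2 and HHO3. The order was not the same on both arrays for some of them. HRS1 was lower than BT2 on replicate 2 and higher on replicate 1, as were HHO1, LBD37 and LBD39 against BT2. LBD37 and LBD39, HHO2 and HHO3, and HHO2 and TGA4 also changed places between arrays. BT1 was the lowest of the 10 on both. The genes with a symbol whose pair of ratios lay nearest to that of HRS1 over the 2 arrays, by distance on the log2 scale, were the peroxidase gene PER64 (distance 0.061), the potassium channel gene SKOR (0.19) and the nicotianamine synthase gene NAS4 (0.32).

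PER64 is a marker of the endodermis and SKOR of the stele, and markers of root cell types were lower in the same RNA. In the endodermis list 4 of 8 fell, where 6.48% of all genes did, with a summed signal of 12744 and 12570 in control and 5152 and 5391 in aluminium RNA on replicates 1 and 2. In the root hair list 5 of 8 fell, with sums of 5392 and 3947 against 3212 and 2422. In the stele list 2 of 7 fell, SKOR and SHR, with sums of 8689 and 7958 against 7519 and 5134. The nitrate transporter gene NRT1.5, which is also counted with the nitrate uptake genes below, gave 4301 and 3738 of the stele control sums and had ratios of 0.17 and -0.72. Without it, an alternative chosen after its values were seen, the stele sums were 4388 and 4220 in control and 2692 and 2870 in aluminium RNA. These sums weight each marker by the brightness of its probe. No marker of these lists rose, and no defining marker was below background in the control channels. SHR, a transcription regulator in the stele list, had -0.49 ± 0.075. The endodermis regulators SCR (-0.27 ± 0.20) and MYB36 (-0.23 ± 0.19) did not pass, nor did SGN3 (-0.12) and CASP5 (-0.014). The root hair genes LRX1 and PRP3 did not pass either and had positive means of 0.22 and 0.21. All of these but SHR are named here with their values already known. With median centring 3 root hair markers and 1 stele marker were called lower, and SHR was not, where 586 of all 19194 genes were called lower. The part of cell type markers in the lower ratios of the regulators was not tested. Among the 10 green shoot markers limma called 0, and 0 had an unadjusted p under 0.05.

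Among genes upstream of the regulators, calls were about as frequent as among all genes. Of 18 measured genes that sense or transmit nitrate, 1 rose, 1 fell and 16 did not pass, while over all genes tested 8.25% were called higher and 6.48% lower. The list had a median ratio of 0.027 on replicate 1 and -0.066 on replicate 2. NLP7, the transcription factor that activates HRS1, HHO1 and the LBD genes after nitrate supply, had 0.17 and 0.0031 (95% confidence interval of the mean -0.17 to 0.34, adjusted p = 0.628). NRT1.1, the nitrate transporter and sensor, had -0.42 on replicate 1 and -1.60 on replicate 2, did not pass (adjusted p = 0.0769), and passed with median centring. CPK10, a calcium-dependent kinase that phosphorylates NLP7, rose by 1.07 ± 0.24 (adjusted p = 0.00889). CBL9, a calcium sensor that acts on NRT1.1 through the kinase CIPK23, had -0.42 ± 0.048 (adjusted p = 0.0465) and did not pass with plain background subtraction or median centring. CIPK23 itself had -0.37 ± 0.13. NLP7 was named after its values were seen.

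Downstream genes went both ways. Of 16 measured genes of nitrate uptake and reduction 5 fell, 2 rose and 9 did not pass, against 6.48% lower and 8.25% higher over all genes, and the median ratio of the list was -0.27 on replicate 1 against -0.78 on replicate 2. With median centring 8 were called lower and 1 higher, where 586 of all 19194 genes were called lower and 889 higher. The 5 were HB1, a haemoglobin that removes nitric oxide (-1.07 ± 0.26), the vacuolar nitrate transporter gene CLC-A (-0.91 ± 0.19), the glucose-6-phosphate dehydrogenase genes G6PD2 (-0.85 ± 0.12) and G6PD3 (-1.03 ± 0.52), and UPM1, which makes the sirohaem precursor that nitrite reductase needs (-1.15 ± 0.49). G6PD3, UPM1 and the next 3 genes are named here with their values already known. The nitrite reductase gene NIR1 had -0.43 and -1.48 on the arrays (adjusted p = 0.0686), and the nitrate reductase genes NIA1 (0.27 and -0.60) and NIA2 (0.42 and -0.60) were above 0 on the first array and below 0 on the other.

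NRT2.1, the main high-affinity nitrate transporter gene of roots, had control signals of 10304 and 24357 and aluminium signals of 23604 and 34078. It was higher with aluminium on each array, while the groups overlapped. The ratios of 1.20 and 0.48 gave a mean of 0.84 ± 0.50 (adjusted p = 0.0434), and the call ended with plain background subtraction and with median centring. NRT2.2, its neighbour and close copy, had 85 and 143 in control and 197 and 734 in aluminium RNA, and rose by 1.79 ± 0.81 (adjusted p = 0.0179), the mean ranging from 1.42 to 3.12 over the settings. The NRT2.2 control signal was 1.95 and 2.42 times the local background, and the probes of this pair may not separate the copies.

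**Figure D4:**
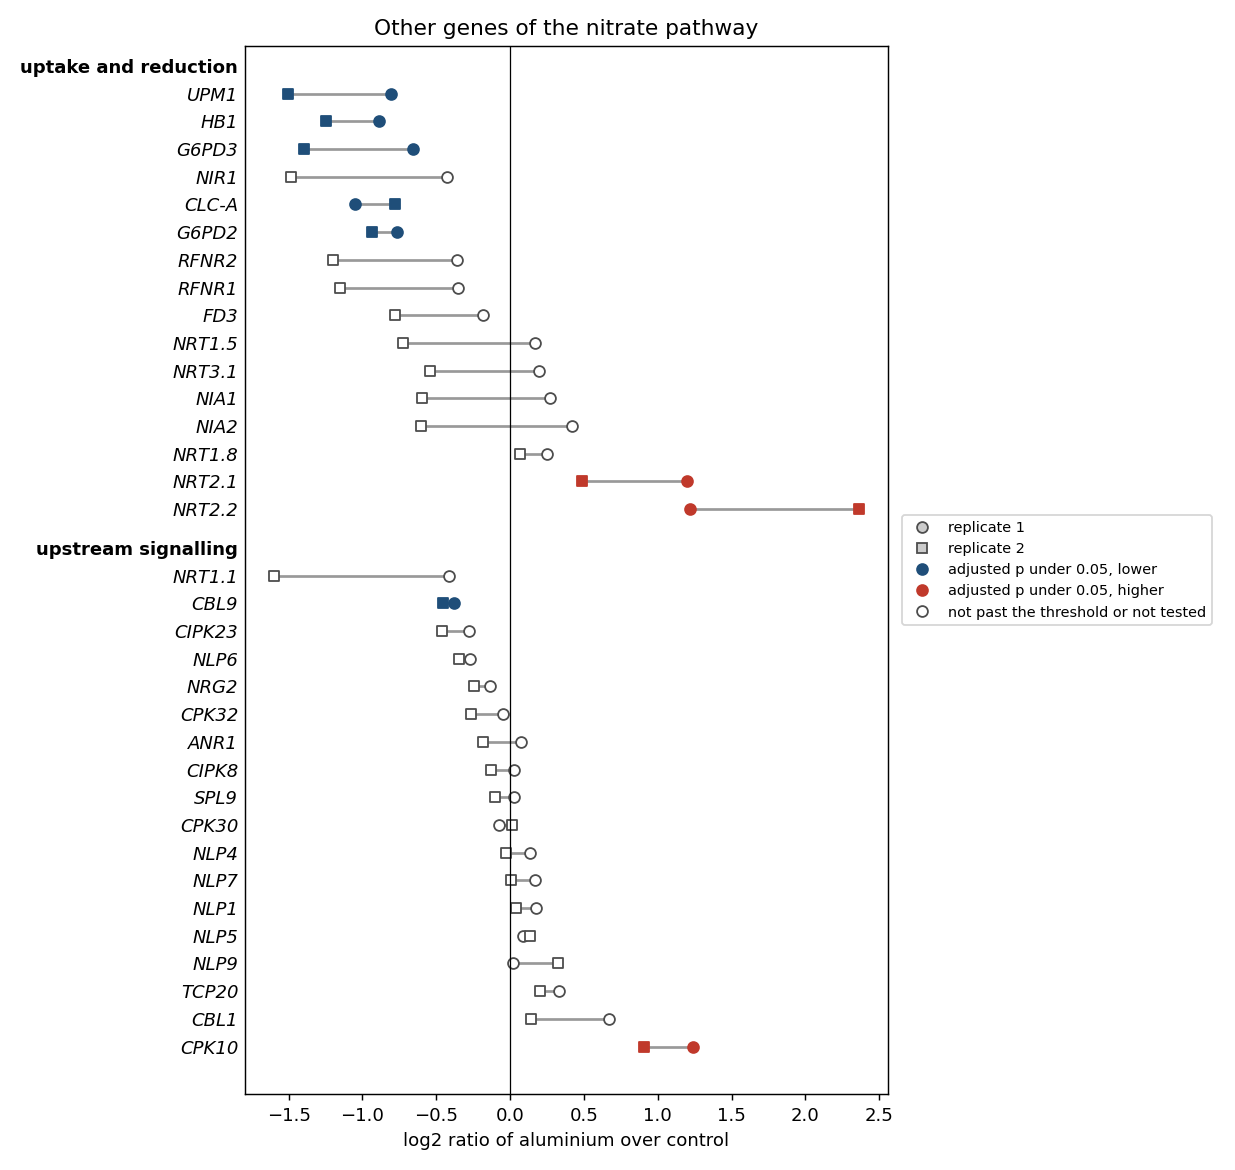
Log2 ratio of aluminium over control on replicate 1 (circles) and replicate 2 (squares) for 16 genes of nitrate uptake and reduction and 18 upstream genes, filled blue or red where lower or higher at an adjusted p under 0.05. NRT2.1 and NRT2.2 lie to the right of 0, HB1, CLC-A, G6PD2, G6PD3 and UPM1 to its left, and CPK10 and CBL9 are the upstream genes that passed.

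Of genes known to be repressed by HRS1 and HHO proteins, 1 of 5 measured rose, NRT2.1, and the other 4 did not pass, with list medians of 0.19 and 0.14; a single call in so short a list cannot be set apart from the 8.25% of all genes called higher. SPX1 (0.12 ± 0.095) and SPX2 (0.29 ± 0.30), inhibitors of the phosphate starvation regulator PHR1, were among the latter, as was NRT3.1, the partner protein gene of NRT2.1 (0.20 and -0.54). NRT2.4 and NRT2.5 were not well above background in either channel on replicate 2 and were not tested. In the phosphate starvation list 1 of 7 fell, the phosphate transporter gene PHT1;4 (-1.09 ± 0.13, adjusted p = 0.00618), and 6 did not pass, which likewise cannot be set apart from the 6.48% of all genes called lower. Median centring called 2 lower, where 586 of all 19194 genes were called lower. PHT1;1 had -0.55 ± 0.40 and PHR1 0.29 ± 0.055.

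Anthocyanin genes, which LBD37, LBD38 and LBD39 repress, gave no call. Of 6 measured limma called 0, and 0 had an unadjusted p under 0.05. The list medians were 0.078 and -0.017. UF3GT, the gene of smallest p in this list, had -0.40 and -0.0042 on the arrays. The activator gene PAP1 had 0.30 and -0.029, and the hydroxylase gene TT7 0.46 and -0.039. The repressor gene MYBL2 had 0.057 and -0.36. PAP1, MYBL2, PAP2 and TT8 were dim, at 1.485 to 2.82 times the local background, where the offset draws ratios towards 0. UF3GT lay at 2.47 to 3.44 times the local background and TT7 at 4.475 to 6.97 times. PAP2 and TT8 are named here with their values already known. The scanner software's ratio of PAP1 on replicate 1 was 1.17. With 6 genes of which most are dim, a count of 0 cannot be set apart from the share over all genes. DFR and LDOX were not tested, DFR being not well above background in both channels of both arrays.

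The probes of the 4 lowest regulators were placed by the annotation in the file of replicate 1, whose genome build is not given in the sources used here. The 60-base probe of HRS1 lay on chromosome 1 at 4558529 to 4558588 and that of HHO1 on chromosome 3 at 9416085 to 9416144. Those of BT1 and BT2 are listed from the higher to the lower position, on chromosome 5 at 25350869 to 25350810 and on chromosome 3 at 17919555 to 17919496. The 10 regulators lie on chromosomes 1, 3, 4 and 5.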

How the data were processed

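Total root RNA was labelled with Cy3 and Cy5 and hybridised on 2 arrays. The deposited scanner files hold intensity values per channel, not normalized, made with Feature Extraction 8.1.1.1 and 7.1.1 per the file headers (9.5.1.1 per the submitters' processing notes), and a log10 ratio that the scanner software computed, per the file headers. The authors also deposited a series matrix, with log2 values for 20346 probes, which matched the scanner ratios of aluminium over control (r = 0.998 and 0.887), with medians of -0.0103 and -0.0112, and their normalization is not given in the sources used here.

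Mean signals were corrected with normexp (offset 50, which draws ratios of dim spots towards 0) and normalized by loess in limma 3.58.1 under R 4.3.3, control spots having weight 0. Printed signals were further set to a common level across arrays (Aquantile), and are compared within a probe, or as sums over a marker list. Of 21500 probes, 108 were left out for an outlier mark, 1151 others for being dim in both channels of an array, and 1047 for lacking a locus common to both layouts. The 19194 genes left (1 probe each) were fitted with lmFit and eBayes against 0, two-sided, with 1 residual and 4.06 prior degrees of freedom. The fit was also run on simulated ratios drawn from its own fitted spread. These held no dye or layout effect, so that run cannot address either. No dye term was fitted, since with 2 arrays it uses the last residual degree of freedom. The number of arrays limits the precision. Nothing in the labels beyond "biological replicate" tells how the root samples were separated, so p-values refer to these arrays only. The spread behind each p-value was drawn more from the prior over all genes than from the gene's own 2 ratios.

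The regulators and gene lists were chosen with earlier results of these data known. Named genes were every regulator, the 4 genes of smallest p in each other list, and the 3 genes nearest to HRS1; others are marked. Symbols come from the RefSeq table of assembly TAIR10.1 (19118 genes found) or common usage for the listed loci. Alternatives changed background correction, normalization, the source of the ratios, the filter and the replicates. A planned search for promoter motifs was not run, and no probe sequence was used here.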

Additional observations from a re-analysis of the deposited data

How the results depend on the processing

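The 9 tested regulators kept a negative mean ratio under all 7 alternatives with a fit, and TGA4 in the one that kept marked probes. The means ranged from -2.55 to -2.35 for HRS1, -2.27 to -1.70 for HHO1, -3.48 to -3.15 for BT1, -1.995 to -1.84 for BT2, -1.45 to -1.31 for LBD37, -0.80 to -0.77 for LBD38 and -1.39 to -1.29 for LBD39. The adjusted p changed more. With the scanner software's ratios 3 regulators were called lower (HRS1, HHO1 and BT1), among 170 higher and 118 lower genes. With the series matrix values limma called 0 regulators, 0 higher and 0 lower genes, although 5073 genes had an unadjusted p under 0.05; the adjusted p of the 7 regulators then lay between 0.0535 (HRS1) and 0.0933 (LBD38). Median centring called 889 higher and 586 lower genes, and kept all 7 regulators. The limma adjusted p of these 7 then ran from 6.9e-36 (BT1) to 0.0203 (LBD38). With 2 arrays, values as small as the former rest on variance pooled over genes. The cause of the differences between settings was not tested. Calls of single genes in the other lists also ended with the scanner ratios or the series matrix values: LBD41, BT4, TGA7, TGA1, CPK10, CBL9, HB1, G6PD2, G6PD3, CLC-A, UPM1, NRT2.2 and NRT2.1 with both, and PHT1;4 with the latter. The median of the uptake and reduction list was -0.71 and -0.56 on replicates 1 and 2 with median centring, which called 8 lower and 1 higher. Leaving out a replicate leaves 1 ratio per gene, a value with no test. With normexp and loess the 10 regulators stayed negative on either array, HHO2 only just on replicate 2 (-0.0043). With median centring HHO2 and HHO3 were positive on that array (0.22 and 0.11). No paired analysis was possible beyond the fit itself, because that fit is paired already: each ratio compares both treatments within an array.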
